A study of Mus musculus with 2 samples.

Results

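Neurotrophins are secreted growth factors that keep neurons alive and shape their dendrites and synapses. Brain-derived neurotrophic factor (Bdnf) binds the receptor tyrosine kinase TrkB, encoded by Ntrk2. Neurotrophin-3 (Ntf3) binds TrkC, encoded by Ntrk3. All neurotrophins also bind p75, encoded by Ngfr, which has no kinase of its own. In the cortex Bdnf and TrkB act in activity-dependent growth and plasticity of synapses, and Bdnf transcription responds to neuronal activity through several alternative promoters. Open chromatin at these 5 genes, taken by their GENCODE M21 symbols from 21938 protein-coding genes, is described here in the frontal cortex of young mice.

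The assay was DNase-seq: nuclei are treated with DNase I, an enzyme that cleaves DNA where it is not packed away, and sequencing locates the cleaved ends. The tissue was whole frontal cortex of female B6CASTF1/J mice, F1 animals of a cross between the B6 and CAST backgrounds, at 10 days of age. There were 2 libraries, labelled biological replicates 1 and 2, of 1 group, so no condition was compared and no test was made. The labels give the replicates separate tissue samples under the same donor entry, and they also say "3x" without explaining it, so the spread between the libraries may be partly technical. The longer deposited peak list of each library was used, with 104654 peaks in replicate 1 and 81654 in replicate 2. Footprints are short stretches inside open chromatin with fewer cuts than their surroundings, and the lists held 293484 in replicate 1 and 187137 in replicate 2.

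The libraries differed in scale and in length of list. The authors' peak signal had a median of 0.604 in replicate 1 and 0.880 in replicate 2. Over 61026 peaks shared 1 to 1, replicate 1 minus replicate 2 on the log2 scale was -0.25 at the median, with an SD of 0.32, and this SD is the spread used below. Differences given after centring have this median taken off. Of all peaks, 64.8% in replicate 1 and 82.9% in replicate 2 overlapped a peak of the other library. As a check of the tissue, 7 of 8 cortical neuron marker genes had a start-site peak in both libraries, as had 4 of 6 astrocyte genes, 2 of 7 hindbrain, midbrain and cerebellum genes, 2 of 5 basal forebrain cholinergic genes and 0 of 3 liver genes. Of all protein-coding genes, 62.8% had one, so the astrocyte share is near the background. In such mixed tissue, a site open in fewer cells and a site less open in each cell cannot be told apart.

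Annotated starts within 100 bp were merged into 1 start site, and a start site was called open where a peak overlapped the 500 bp on either side. The 5 genes had 34 start sites, and 18 of them (52.9%) were open in both libraries. In replicate 1, 20 were open, and in replicate 2, 18. Among all start sites of protein-coding genes, 41.6% were open in replicate 1, 38.8% in replicate 2 and 37.9% in both. The openness was spread unevenly over the family: Bdnf had 7 of 8 start sites open in both libraries, Ntrk2 5 of 7, Ntrk3 5 of 15, Ngfr its only one, and Ntf3 none of 3. Within each gene body plus 20 kb on either side, the 5 genes together held 91 peaks and 237 footprints in replicate 1, against 70 peaks and 133 footprints in replicate 2.

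**Figure D1:**
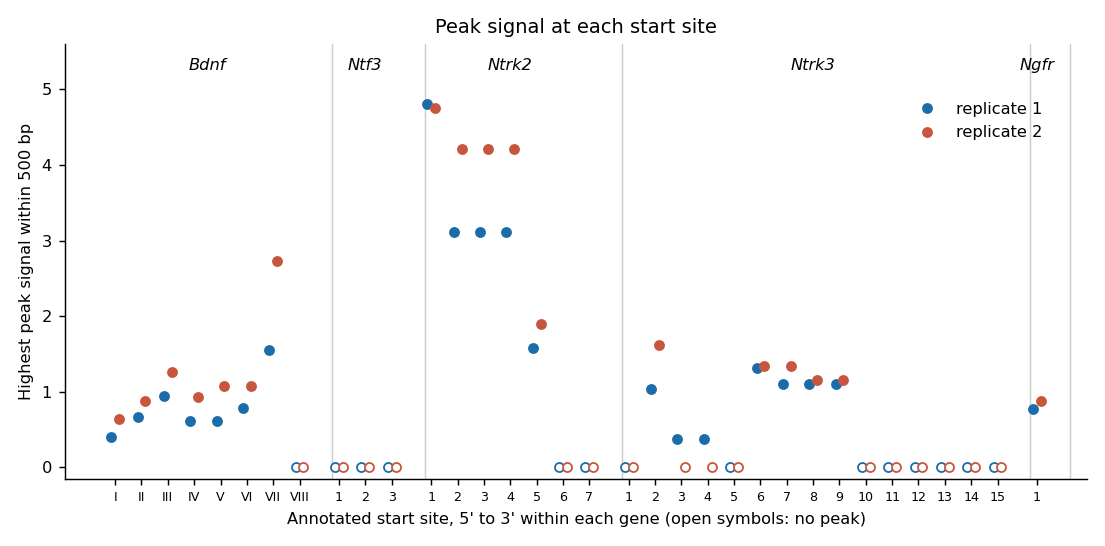
Highest authors' peak signal within 500 bp of each of the 34 annotated start sites (vertical axis, authors' units), ordered 5' to 3' within each gene, with blue points for replicate 1, red points for replicate 2 and open points at 0 where no peak was listed. Ntrk2 reached 4.81 and 4.76, 7 Bdnf start sites had signals in both libraries, and the 3 Ntf3 start sites lay at 0.

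The sequences that follow are the DNA around which the results turn: the 200 bases before 2 Bdnf start sites and before the strongest Ntrk2 start site, and the strongest open site away from any start in each gene. They come from the RefSeq genome GRCm38.p6, the B6 reference, so a CAST allele may differ. Capitals mark bases under a footprint in either library. Start site I of Bdnf has no footprint in these 200 bases, and start site IV has footprints of both libraries in the last bases before its start.
Bdnf I, 200 bases before the start, chr2:109674500-109674699, plus strand: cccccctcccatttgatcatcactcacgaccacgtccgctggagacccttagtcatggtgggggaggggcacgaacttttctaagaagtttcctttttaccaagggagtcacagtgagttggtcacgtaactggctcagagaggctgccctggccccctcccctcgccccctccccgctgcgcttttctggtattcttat
Bdnf IV, 200 bases before the start, chr2:109692236-109692435, plus strand: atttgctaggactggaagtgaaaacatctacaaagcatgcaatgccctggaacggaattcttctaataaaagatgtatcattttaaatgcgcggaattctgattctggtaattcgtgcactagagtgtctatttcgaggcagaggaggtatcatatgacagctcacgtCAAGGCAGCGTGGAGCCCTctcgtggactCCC
Bdnf intron, central 300 bases of the open site, chr2:109678081-109678380, plus strand: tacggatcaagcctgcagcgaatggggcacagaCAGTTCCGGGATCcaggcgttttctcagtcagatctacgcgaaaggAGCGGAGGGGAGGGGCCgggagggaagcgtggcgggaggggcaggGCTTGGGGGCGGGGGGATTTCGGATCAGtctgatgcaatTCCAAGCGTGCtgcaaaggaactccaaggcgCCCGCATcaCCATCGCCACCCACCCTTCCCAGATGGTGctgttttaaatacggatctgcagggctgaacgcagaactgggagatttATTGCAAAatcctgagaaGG
Ntf3 intron, open site, chr6:126106501-126106700, plus strand: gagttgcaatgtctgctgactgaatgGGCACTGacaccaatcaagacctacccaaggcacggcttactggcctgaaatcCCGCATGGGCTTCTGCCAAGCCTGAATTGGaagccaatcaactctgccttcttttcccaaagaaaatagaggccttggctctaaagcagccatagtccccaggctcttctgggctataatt
Ntrk2, 200 bases before the most upstream start, chr13:58806369-58806568, plus strand: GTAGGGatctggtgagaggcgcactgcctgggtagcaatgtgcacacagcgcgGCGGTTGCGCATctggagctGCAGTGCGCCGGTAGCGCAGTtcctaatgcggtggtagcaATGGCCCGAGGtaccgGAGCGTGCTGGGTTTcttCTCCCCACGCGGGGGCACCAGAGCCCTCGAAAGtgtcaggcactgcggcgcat
Ntrk2 intron, open site, chr13:59073661-59073880, plus strand: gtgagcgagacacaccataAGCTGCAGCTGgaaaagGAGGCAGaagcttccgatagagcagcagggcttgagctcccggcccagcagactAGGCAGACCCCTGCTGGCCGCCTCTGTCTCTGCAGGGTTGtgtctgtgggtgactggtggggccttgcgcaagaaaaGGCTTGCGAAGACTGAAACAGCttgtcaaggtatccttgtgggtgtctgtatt
Ntrk3 intron, open site, chr7:78596001-78596175, plus strand: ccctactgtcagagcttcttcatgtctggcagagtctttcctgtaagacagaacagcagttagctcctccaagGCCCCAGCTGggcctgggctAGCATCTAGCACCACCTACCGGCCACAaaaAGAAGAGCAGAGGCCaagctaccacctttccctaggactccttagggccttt
Ngfr intron, open site, chr11:95586301-95586520, plus strand: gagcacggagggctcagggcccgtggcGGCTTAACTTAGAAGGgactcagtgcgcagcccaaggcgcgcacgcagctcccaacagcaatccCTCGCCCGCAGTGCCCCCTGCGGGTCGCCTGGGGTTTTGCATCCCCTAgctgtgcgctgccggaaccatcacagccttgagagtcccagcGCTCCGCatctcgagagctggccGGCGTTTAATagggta

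Bdnf (ENSMUSG00000048482.14, chr2:109674700-109727007, plus strand) had 11 annotated transcripts that begin at 8 start sites. These carry the usual mouse exon names I to VIII, and each leads into the shared exon that holds the protein. Exons I, II and III lie within 2332 bp of each other, exons IV to VII begin 17736 to 19709 bp after start I, and exon VIII begins 34683 bp after it. Both of these clusters were open and exon VIII was not. The count of 7 open start sites fell to 3 with a window of 250 bp, and to 3 with the shorter peak list.

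In the upstream cluster, the highest signal near start I was 0.396 in replicate 1 and 0.643 in replicate 2. Start II (109675897) had 0.667 in replicate 1 and 0.880 in replicate 2. Start III (109677032) had 0.943 in replicate 1 and 1.26 in replicate 2. The signal thus stepped up from I to III in both libraries. In no case did a peak cover the annotated start base: the nearest peak edge was 320 and 140 bp upstream of start I, 124 and 264 bp downstream of start II, and 89 bp downstream of start III in replicate 1 and 52 bp upstream of it in replicate 2. At start I the strongest peak of replicate 2 was broad and began at position -1279 from the start, next to Gm20638, an annotated noncoding transcript that begins at 109673166.

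In the downstream cluster, start IV (109692436), the exon best known for its response to neuronal activity, was covered by a peak in both libraries, with 0.615 in replicate 1 and 0.936 in replicate 2. Start VI (109693563) was also covered in both, with 0.781 in replicate 1 and 1.08 in replicate 2. Start V (109693027) lay between them and had no peak of its own. Its window only touched the peaks of its neighbours, 467 bp away in replicate 1 and 394 bp away in replicate 2, so it counts as open by the window rule alone.

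The highest start-site signal of the gene stood near start VII, at 1.55 in replicate 1 and 2.73 in replicate 2. That peak covers chr2:109694921-109695120, which is 512 to 711 bp downstream of the first of the 2 merged starts of exon VII (109694409 and 109694469). The window reached it only from the later start. Around the earlier start alone, the highest signals were 0.495 in replicate 1 and 1.08 in replicate 2. The latter came from the peak that covers start VI. Start VIII (109709383) had no peak, no footprint and no base listed in the cut-rate table within 500 bp in either library. A further start that RefSeq alone places at 109722921 had a weak peak of 0.245 in replicate 1 and none in replicate 2.

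Without V and VIII, the 6 start sites were ordered by their highest signal. The order was VII, III, VI, II, IV, I in replicate 1, and VII, III, VI, IV, II, I in replicate 2. Only the outer steps exceeded the spread of 0.32 between libraries on the log2 scale: VII stood above III by 0.72 in replicate 1 and 1.11 in replicate 2, and the last step down to I was 0.63 in replicate 1 and 0.45 in replicate 2. Each single step among III, VI, II and IV was 0.09 to 0.27 on that scale, less than the spread. The ends of this run lay further apart than the spread, at 0.943 and 0.615 in replicate 1 and 1.26 and 0.880 in replicate 2. The place of VII rests on the peak past its start, since 0.495 around its earlier start alone in replicate 1 is below III, VI, II and IV. In replicate 2, only the peak of start VI lay within 500 bp of that earlier start. With a window of 250 bp the highest signal of the gene was 0.943 at start III in replicate 1 and 1.08 at start VI in replicate 2. Their mean, taken without centring and over different start sites, was 1.01, against 2.14 with 500 bp. Since the libraries are on different scales, the order was read within each.

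Footprints near the Bdnf start sites numbered 3 in replicate 1 and 1 in replicate 2 at start I, and 3 and 2 at start II. At start III there were 4 in replicate 1 and 1 in replicate 2, and at start IV 3 and 2. Start VI had the most in replicate 1, with 9, but in replicate 2 it had 2, as had starts II, IV and VII. Start VII had 1 in replicate 1, and start V had none in either. In replicate 1 the peaks in the window of start VI held 2 and 0 footprints, so most of its 9 lay outside called peaks. Of all Bdnf footprints, 27 of 34 in replicate 1 and 26 of 26 in replicate 2 overlapped a peak of their library. In the authors' deposited table of false discovery rates for local cutting, the lowest rate near a start was 2.62e-08 in replicate 1 and 1.90e-13 in replicate 2 at start III, and 7.33e-05 in replicate 1 and 0.00265 in replicate 2 at start IV. Start V had listed bases too, with a lowest rate of 4.65e-07 in replicate 1 and 0.00343 in replicate 2, although no peak was called at it. Its window overlaps those of starts IV and VI, so these bases may belong to its neighbours.

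**Figure D2:**
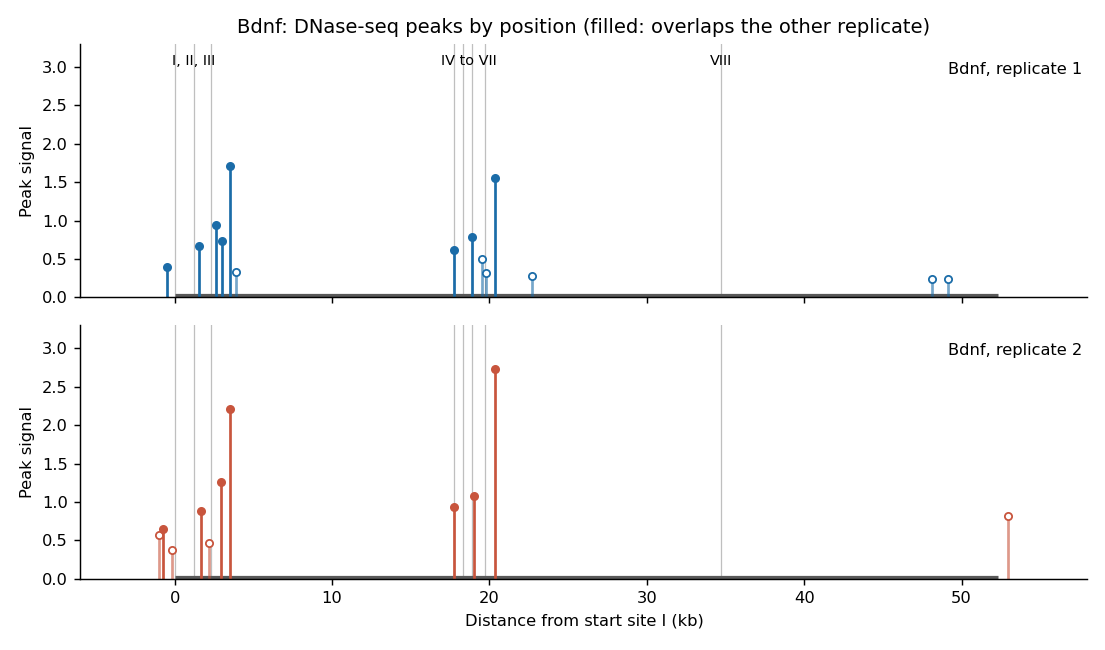
Peaks along Bdnf by distance from start site I in kb (horizontal axis) and authors' peak signal (vertical axis), replicate 1 above and replicate 2 below, with filled points where the peak overlaps one of the other library, grey lines at the 8 start sites and a thick bar for the gene body. Peaks gather at starts I to III and IV to VII in both libraries, the highest point of replicate 1 is the intronic site after start III at 1.71, that of replicate 2 is the peak past start VII at 2.73, and none stands at start VIII.

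The strongest Bdnf site away from any start lay in an intron at chr2:109678061-109678400, 1198 bp downstream of start III. Its signal was 1.71 in replicate 1, the highest of the gene there, and 2.21 in replicate 2, and it held 7 footprints in each library. It was the only such site of Bdnf open in both libraries. In the sequence above, a run of capitals covers a G-rich stretch that holds GGGCGG, the binding word of SP factors. Footprints covered 5 of its 6 bases in replicate 1 and 6 of 6 in replicate 2. This word, sought on both strands, occurred in 10.2% of 41246 windows at sites of this kind, so its presence here is a description. The same windows served for all sites, so their length need not equal the 300 bases printed here.

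Before start IV, the sequence holds the reverse complement of TGACG, the core of the cAMP response element bound by CREB, at positions -35 to -31 counted from the start. Footprints covered 2 of its 5 bases in replicate 1 and 0 in replicate 2. Footprints lay just downstream, over the bases printed in capitals. TCGTG, the core word of the activity-dependent factor NPAS4, occurred at -88 to -84 and at -12 to -8, outside every footprint. On the opposite strand of the bases before start I, TCGTG occurred at -176 to -172 and -131 to -127, and no footprint covered it. In the 200 bases before all start sites of protein-coding genes, TGACG occurred in 13.3% and TCGTG in 10.9%.

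By the window rule, having this many open start sites was uncommon among genes with as many annotated ones. Among 387 other protein-coding genes with 8 start sites, the median had 2 open in both libraries and 6 (1.55%) had at least 7. The 7 of Bdnf include start V, which had no peak of its own. With a window of 250 bp, or with the shorter peak list, Bdnf had 3. The other genes were not recounted at those settings. The 5 genes most like Bdnf by number of start sites, number open and body length were Anp32a, Patz1, Ubtf, Cpeb3 and Pbx3. Each had a higher start-site signal than Bdnf, from 2.73 in Patz1 to 9.67 in Anp32a in replicate 1, and from 3.64 in Cpeb3 to 10.3 in Anp32a in replicate 2. Bdnf's own highest signal ranked at percentile 51.9 of all protein-coding genes in replicate 1 and 60.4 in replicate 2.

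The body and flanks of Bdnf held 15.2 peaks per 100 kb in replicate 1 and 11.9 in replicate 2. The mean of 13.5 stood at percentile 86.2 of all protein-coding genes, whose median was 5.80. With only peaks seen in both libraries it was 8.12, at percentile 76.1. The value was 6.34 with flanks of 100 kb and 7.58 with the shorter peak list. The 6 shared 1-to-1 peaks of Bdnf were all lower in replicate 1 after centring, by log2 differences from -0.56 to -0.11, and none passed 2 SD.

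Ntf3 (ENSMUSG00000049107.13, chr6:126101412-126166910, minus strand), the ligand of TrkC, had 3 start sites, at 126166910, 126166715 and 126164960. None had a peak, a footprint or a base listed in the cut-rate table within 500 bp in either library. Their ratio of observed to expected CpG over 500 bases was 0.519, 0.403 and 0.831. Of 10561 start sites of all genes with a ratio of at least 0.8, 95.6% were open in both libraries and 2.66% in neither, so the most downstream Ntf3 start was among few CpG-rich starts without a peak. An additional RefSeq model start at 126163882 had a peak of 0.733 in replicate 2 and none in replicate 1.

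The Ntf3 sites open in both libraries lay far from its starts. The site printed above, in an intron about 60.3 kb downstream of the most upstream start, reached 0.760 in replicate 1 and 0.902 in replicate 2, with 2 footprints in each. A site in the downstream flank at chr6:126096219-126096400 had 0.589 in replicate 1 and 0.620 in replicate 2. These were the only sites of Ntf3 open in both libraries, out of 3 peaks in replicate 1 and 4 in replicate 2. The unshared peaks of replicate 2, at 0.733 and 0.699, lay 1461 and 10468 bp from the nearest start. The intronic sequence holds 3 copies of TTGGC, the core word of NFI factors, counted on both strands. The copy at 126106594 was covered by a footprint over 5 of 5 bases in replicate 1 and 2 of 5 in replicate 2, and the others were not covered. TTGGC occurred in 43.5% of all sites of this kind, so its presence is common.

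**Figure D3:**
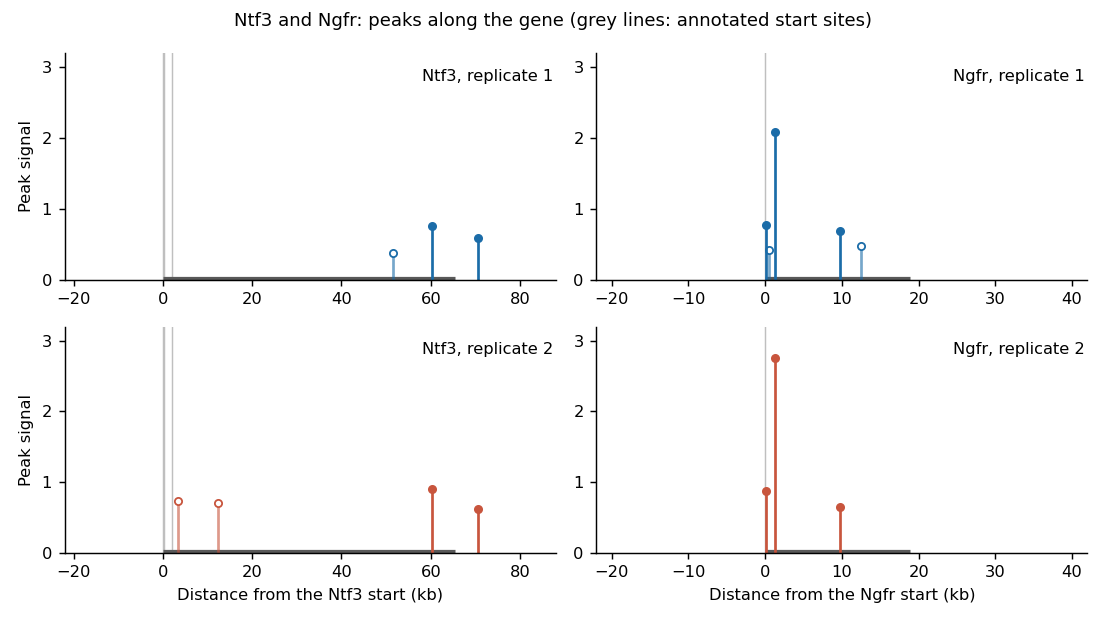
Peaks along Ntf3 (left) and Ngfr (right) by distance in kb from the most upstream start of each (horizontal axis) and authors' peak signal (vertical axis), replicate 1 above and replicate 2 below, with filled points where the peak overlaps one of the other library, grey lines at start sites and thick bars for gene bodies. Ntf3 has no peak at its starts and shared peaks 60.3 and 70.6 kb away, while the highest Ngfr peak, 2.09 and 2.75, stands 1.3 kb inside the gene.

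Ntrk2 (ENSMUSG00000055254.15, chr13:58806569-59133970, plus strand), which encodes the Bdnf receptor TrkB, had the highest start-site signals of the 5 genes. Its most upstream start site had 4.81 in replicate 1 and 4.76 in replicate 2, with 13 and 12 footprints. After centring, this shared peak differed by a log2 value of 0.27 between replicate 1 and replicate 2, within the spread. The next 3 start sites, at 58807697, 58807878 and 58808281, shared a peak of 3.11 in replicate 1 and 4.21 in replicate 2, so they are not separate observations. The fifth, at 58808691, had 1.58 in replicate 1 and 1.89 in replicate 2. The starts of 2 noncoding transcripts further inside the gene, at 58835815 and 58871735, had no peak.

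The highest signal of Ntrk2 ranked at percentile 79.7 of all protein-coding genes in replicate 1 and 75.9 in replicate 2. In the printed 200 bases before the most upstream start, footprints covered 80 bases in replicate 1 and 65 in replicate 2, with 47 covered in both. A CAGATG word, of the kind bound by proneural helix-loop-helix factors, had 3 of its 6 bases under a footprint in both libraries. It or CAGCTG, on either strand, occurred before 22% of all start sites.

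TrkB is made in a full-length form with a kinase and in truncated forms without it, which astrocytes carry in the adult brain. The annotated transcripts of 821 codons run to 59133970, and a truncated transcript of 476 codons ends at 58937027. Over the 129330 bp between the start at 58807697 and that end, there were 7 peaks in replicate 1 and 5 in replicate 2, of which 4 in each were shared. Over the 196943 bp from there to the end of the full-length form, there were 30 in replicate 1 and 11 in replicate 2, of which 9 in each were shared. Shared peaks thus numbered 3.09 per 100 kb in the upstream stretch and 4.57 in the downstream one. The 3 strongest sites away from any start all lay in this downstream stretch.

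The strongest, printed above, lay 266.1 kb from the start at 58807697 and had 2.51 in replicate 1 and 3.48 in replicate 2. A long footprint of 40 bp in replicate 1 and 39 bp in replicate 2 covered nearly the same bases, from 59073751 or 59073752 to 59073790. The site at chr13:59092781-59092980 had 2.76 in replicate 1 and 1.95 in replicate 2, a centred log2 difference of 0.75, beyond 2 SD (0.63). The site at chr13:59011541-59011800 had 1.62 in replicate 1 and 2.48 in replicate 2. It holds 3 copies of CACGTG, an E-box found in 4.40% of all such sites. Footprints covered 6 and 4 bases of 2 of them in replicate 1 and none in replicate 2. In the printed site, CAGCTG was covered over 2 of 6 bases in replicate 1 and 6 of 6 in replicate 2, and one or the other proneural word occurred in 39.7% of such sites.

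The count of Ntrk2 peaks rested in part on weak peaks seen in a single library. Of 44 peaks in replicate 1, 27 were not shared, with a median signal of 0.297 against 1.22 for the 17 shared ones. Of 29 in replicate 2, 11 were not shared, with a median of 0.169 against 1.14 for the 18 shared ones. The strongest of these 11, at 2.26, lay beside the strongest intronic site. The mean peak density of the libraries was 9.93 per 100 kb, which stood at percentile 95.6 among genes of 100 kb or longer. With shared peaks alone it was 4.76 per 100 kb, at percentile 79.3 among those long genes. The strongest peak in the downstream flank, 3.75 in replicate 1 and 5.46 in replicate 2, stood at the start of the long noncoding RNA Gm34354 and not at a start of Ntrk2.

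**Figure D4:**
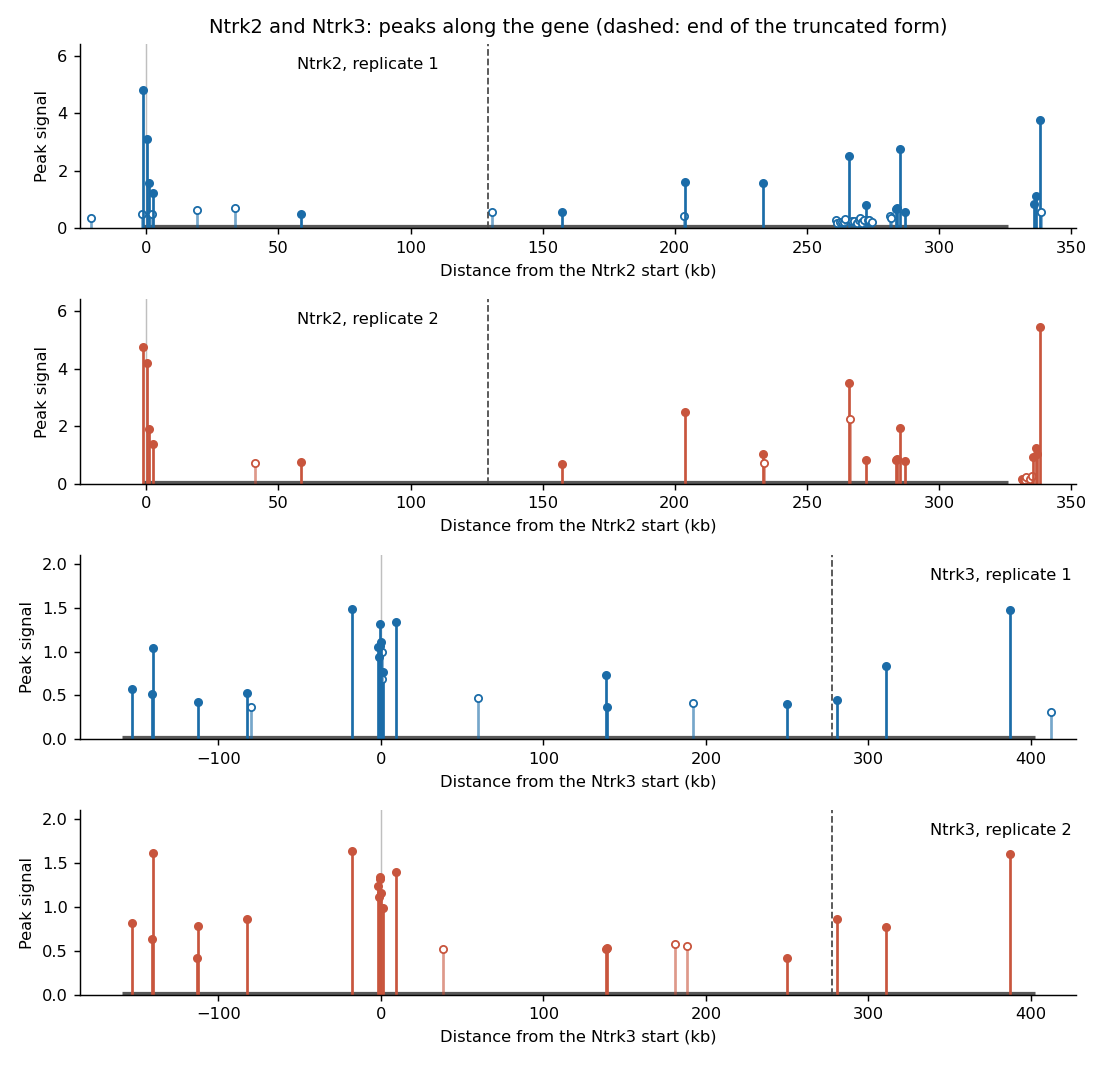
Peaks along Ntrk2 (upper pair) and Ntrk3 (lower pair) by distance in kb from the start at 58807697 of Ntrk2 or 78578408 of Ntrk3 (horizontal axis) and authors' peak signal (vertical axis), with replicate 1 above replicate 2, filled points where the peak overlaps one of the other library, thick bars for gene bodies and a dashed line at the end of the truncated form. The strongest Ntrk2 sites away from the starts lie beyond the dashed line, and runs of weak open points appear in replicate 1 inside Ntrk2 and in replicate 2 after its end.

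Ntrk3 (ENSMUSG00000059146.12, chr7:78175959-78738012, minus strand), which encodes TrkC, had 20 transcripts and 15 start sites, of which 7 were open in replicate 1, 5 in replicate 2 and 5 in both. A group of 4 neighbouring start sites between 78577783 and 78578698, which includes those of the full-length receptor transcripts, was open in both, with highest signals from 1.10 to 1.31 in replicate 1 and from 1.16 to 1.34 in replicate 2. These windows shared peaks. With the shorter peak list 1 Ntrk3 start site was open in both libraries, and with a window of 250 bp 3 were. The other start site open in both, at 78718220, belongs to a noncoding transcript and had 1.04 in replicate 1 and 1.61 in replicate 2. A peak of 0.370 in replicate 1 touched the windows at 78658109 and 78657724, where replicate 2 had none. Among 22 other genes with 15 start sites the median had 4 open in both libraries, and 40.9% had at least 5.

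The strongest Ntrk3 site away from any start, printed above, had 1.48 in replicate 1 and 1.64 in replicate 2, each above the start sites of the receptor in that library. It lies in an intron, centred at -17.7 kb from the start at 78578408, that is, upstream of it. A footprint of 26 bp in replicate 1 and 27 bp in replicate 2 covered 78596095 to 78596120, almost base for base the same. The site at chr7:78191021-78191280, which overlaps an exon, had 1.47 in replicate 1 and 1.60 in replicate 2, and that at chr7:78569001-78569180 had 1.33 in replicate 1 and 1.40 in replicate 2. All 3 differed between libraries by less than the spread after centring.

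Ntrk3 was less densely covered than Ntrk2, with 4.15 peaks per 100 kb in replicate 1 and 3.82 in replicate 2, at percentile 48.8 of genes of 100 kb or longer. With shared peaks alone it was 3.24. Of its peaks, 19 of 25 in replicate 1 and 20 of 23 in replicate 2 were shared. Over the 277718 bp up to the end of the truncated form of 612 codons at 78300690, there were 10 peaks in replicate 1 and 9 in replicate 2, of which 6 in each were shared. Over the 124731 bp beyond it there were 3 in each, all shared. Shared peaks thus numbered 2.16 per 100 kb before that end and 2.41 beyond it.

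Ngfr (ENSMUSG00000000120.6, chr11:95568818-95587735, minus strand), which encodes p75, had 1 start site. Its signal was 0.766 in replicate 1, where the peak covered the start, and 0.880 in replicate 2, where the peak edge was 17 bp away. A stronger site lay in an intron 1324 bp downstream, with 2.09 in replicate 1 and 2.75 in replicate 2. A footprint of 48 bp in replicate 1 and 46 bp in replicate 2, shown in capitals in the printed sequence, lay near its middle. The printed strand holds the reverse complement of AGGGGGC, a short core word of CTCF sites, and the footprint covered 7 of 7 bases in both libraries. This word was searched after the sequence had been seen, and the longer CTCF core word had no match at the site. Before the start sites of the 5 genes the short word had 5 other copies, of which footprints covered 5 of 7 bases of that in Ntrk2 in replicate 1 and none of the rest. It occurred, on either strand, in 9.51% of all sites of this kind.

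At Ngfr and Ntrk3 the strongest peak of the gene body lay outside the start windows in both libraries, at Bdnf in replicate 1 alone, and at Ntrk2 in neither. Of 13770 protein-coding genes with an open start site in both libraries, 9.61% had it outside in both. At Ngfr the outside and start peaks were 2.09 and 0.766 in replicate 1, and 2.75 and 0.880 in replicate 2. At Ntrk3 they were 1.48 and 1.31 in replicate 1, and 1.64 and 1.61 in replicate 2. At Bdnf in replicate 1 they were 1.71 and 1.55. The gaps at Ntrk3 and Bdnf were smaller than the spread between libraries, so the order there is not firm. The footprint pairs of 40 and 39 bp in Ntrk2, of 26 and 27 bp in Ntrk3 and of 48 and 46 bp in Ngfr recurred at nearly the same bases in both libraries. These pairs were picked from the printed sites away from starts, which all lay in introns. Of all Ntrk2 footprints, 30 of 119 in replicate 1 and 30 of 62 in replicate 2 overlapped one of the other library. For Ntrk3 these were 17 of 72 and 15 of 34, and for Ngfr 4 of 6 and 4 of 5. At chr7:78191021-78191280 in Ntrk3, a footprint of 45 bp in replicate 2 met none longer than 20 bp in replicate 1. Footprints of 7, 13 and 20 bp in replicate 1 lay side by side within that same stretch.

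**Figure D5:**
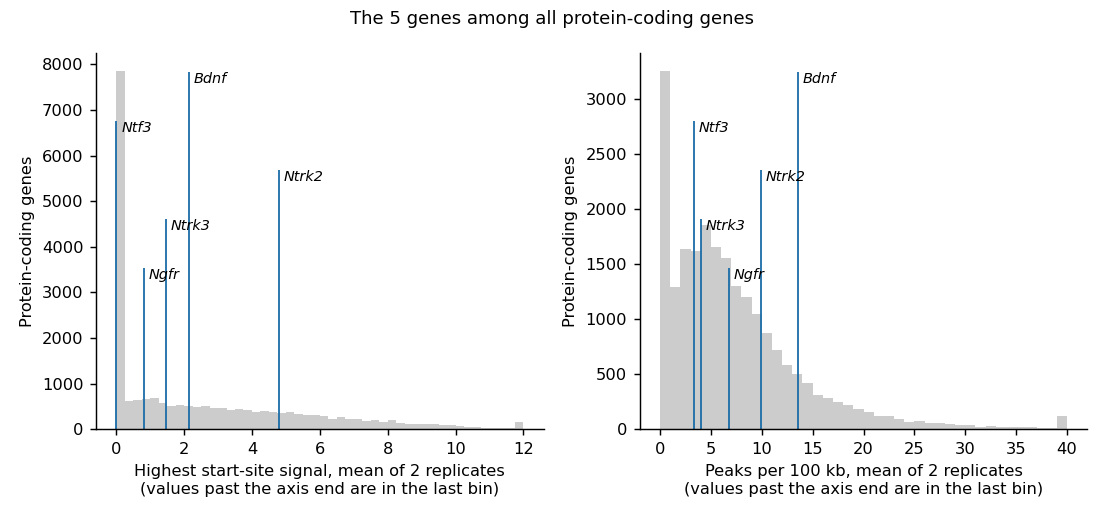
The 5 genes (blue lines) among all 21938 protein-coding genes (grey bars, number of genes on the vertical axis) for the highest start-site signal (left) and for peaks per 100 kb of gene body plus flanks (right), each as the mean of the libraries; the height of a blue line has no meaning. Bdnf stands near the middle of the signals, where genes without a start-site peak count as 0, and at percentile 86.2 of the densities. Ntrk2 is the highest of the 5 in signal, and Ntf3 lies at 0.

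The 18 start sites of the 5 genes that were open in both libraries had a median ratio of observed to expected CpG of 0.652, against 0.222 for the 16 that were not. Over all protein-coding genes the medians were 0.757 for open start sites and 0.232 for the rest. Across all 5 genes, 43 peaks were shared 1 to 1. Their centred log2 differences between replicate 1 and replicate 2 had a median of -0.04 and ran from -0.70 to 0.85, and 4 passed 2 SD, 2 in Ntrk2 and 2 in Ntrk3. The share of all shared peaks that pass 2 SD was not counted, so this number cannot be set against a background.

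Around these genes, the wider neurotrophin pathway was open in most members. Of 44 genes, 41 had a start site open in both libraries, against 62.8% of all protein-coding genes. All 12 Trk adaptors and signalling genes were open. Grb2, an adaptor that links receptors to Ras, had 7.22 in replicate 1 and 8.63 in replicate 2, Frs3, a docking protein, had 6.72 and 7.67, and Shc3, the lowest, had 2.51 and 2.48. All 13 regulators of Bdnf were open, with Creb1 at 9.98 in replicate 1 and 10.3 in replicate 2, its coactivator Crtc1 at 6.43 and 8.68, and the repressor Rest, the lowest, at 1.04 and 1.24.

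Of the other ligands and receptors 6 of 7 were open. The proneurotrophin receptor Sort1 had 4.63 in replicate 1 and 4.41 in replicate 2, its relative Sorcs2 had 2.64 and 3.14, and Ntf5, the other ligand of TrkB, had no start-site peak. Of the proteases that process proneurotrophins 5 of 6 were open, with Pcsk7 at 3.74 in replicate 1 and 4.10 in replicate 2, Plat, the activator of plasminogen, at 3.61 and 3.80, and Plg, which encodes plasminogen, without a peak. Of the p75 partners 5 of 6 were open, with Maged1 at 3.64 in replicate 1 and 4.31 in replicate 2, Traf6 at 2.71 and 2.61, and Ndn without a peak. The ligand genes Ntf3 and Ntf5 thus had no start-site peak, while Bdnf did.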

How the data were processed

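DNase-seq of 2 libraries was used as deposited. Each came with a pair of peak lists, footprints, and rates of false discovery for local cutting. Those false discovery rates (FDR), computed by the authors and deposited per base, reached 0.0499 in replicate 1 and 0.0500 in replicate 2. Per the file headers and the notes deposited beside them, coordinates are mm10 and calls were made for each library separately. The sources used here do not give the aligner, callers, thresholds or read depth, so no counting interval was made. The peak signal is the authors' deposited value, of unstated scaling. Libraries were compared only after centring, while means of the 2 libraries were taken without it. The deposited footprint value was 0.01 in every row, so footprints were only counted.

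Peaks were set against GENCODE M21 starts with Python 3.11.15, numpy 2.4.6 and pysam 0.24.0, and the counting was tested on simulated intervals. An overlap of 1 bp or more made a peak shared. Sites away from starts had their centre over 1000 bp from every annotated start, and the 3 with the highest mean signal in both libraries were taken per gene. Pathway genes were named as the 2 highest and the lowest of each group, and Ngfrap1, an older name of Bex3, was counted with it. The 11 RefSeq promoter sequences of the 5 genes matched the genome used. Alternatives were the shorter peak list, other windows, flanks and merging, the stronger peaks, shared peaks and each library alone. The genes and lists were chosen with earlier results of these data known. The 2 libraries form 1 group, so there was no test.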

Additional observations from a re-analysis of the deposited data

How the results depend on the processing

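Values are the mean of the libraries, or start sites open in both. With the shorter peak list, 3 Bdnf and 1 Ntrk3 start sites were open, against 7 and 5. With a window of 250 bp, 3 Bdnf and 3 Ntrk3 start sites were open. The highest Bdnf signals of each library, at different start sites, then averaged 1.01 against 2.14, since the peak past start VII falls outside. Starts merged within 500 bp left 2 open start sites in Ntrk2 and 2 in Ntrk3, by construction. Ntf3 stayed at 0 and Ngfr at 1 under every alternative run. Peaks per 100 kb with the shorter list were 7.58 in Bdnf, 1.42 in Ntf3, 5.31 in Ntrk2, 1.83 in Ntrk3 and 4.24 in Ngfr. With shared peaks only, they were 8.12 in Bdnf, 1.90 in Ntf3, 4.76 in Ntrk2 and 3.24 in Ntrk3. Without flanks they were 19.1 in Bdnf and 21.1 in Ngfr, and with 100 kb flanks 6.34 in Bdnf, 2.26 in Ntf3 and 4.40 in Ntrk3. Each library alone gave the same number of open start sites, except 7 in Ntrk3 with replicate 1. No paired analysis was possible because there is 1 group of 2 libraries and no test. Depth is not stated, so an unlisted peak says only that none was called.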
